A study of Danio rerio with 2 samples.

Results

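CC chemokine genes of leukocyte-like and fibroblast-like cells in the injured zebrafish heart are described here, namely ccl35.1, ccl35.2, ccl39.1, ccl39.2, ccl39.3, ccl39.5, ccl34b.8, ccl34a.4 and ccl25b. These 9 of the 32057 genes in the deposited tables were chosen by symbol, with their levels by cell class and library already known, so the levels and the differences between libraries are given as a description. The tables list 34 CC chemokine genes in all. Each of the 9 symbols stands on 1 Ensembl identifier. Cells were dissociated from the injured area of the ventricle and its border in adult AB fish, 120 hours post-cryoinjury. One pool came from wild-type fish and the other from fish carrying mutations in both cd74a (allele bns454) and cd74b (allele bns456), small CRISPR-Cas9 lesions in the genes of the invariant chain that chaperones MHC class II molecules. Each pool held 4 ventricles, from 2 females and 2 males, and gave 1 library. There is thus no replicate for either genotype, every difference between the libraries may be a difference between pools or runs as well as between genotypes, and no test was made. Intervals are exact at 95% and cover counting error only.

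CC chemokines are small secreted proteins that attract leukocytes through G protein-coupled receptors, along gradients held on the matrix and on cell surfaces. Fish carry large tandem families of these genes, many without a direct mammalian counterpart, and the ccl34, ccl35 and ccl39 families are of this kind. Ccl25 is the exception among the 9. In mammals its protein draws thymocytes and gut-homing T cells through the receptor CCR9. In injured hearts, macrophages both answer to chemokines and release them, and fibroblasts release them. In the gene order of the GRCz12tu assembly, ccl39.3, ccl39.1, ccl39.2 and ccl35.1 lie close together on chromosome 25, with a single unnamed locus between the first and second of them. ccl35.2 is listed on the same chromosome in another neighbourhood, next to tsg101a and ldha. ccl34b.8 lies among ccl34b genes on chromosome 24, ccl34a.4 follows ccl34a.3 on chromosome 2, and ccl25b lies on chromosome 11 near ccl44. ccl39.5 was not matched to that assembly.

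The wild-type library held 7395919 unique molecular identifiers (UMIs) in 4607 barcodes and the mutant library 22991961 in 15142. Barcodes with over 300 genes and at most 70% mitochondrial UMIs were kept, which left 3589 and 7174 cells, with a median of 1107 and 1049 non-mitochondrial UMIs. The libraries shared 15 barcodes, 7 of them among kept cells. Levels are given as UMIs per 1000000 non-mitochondrial UMIs (CPM). Cells were clustered without any chemokine or chemokine receptor gene and without cd74a and cd74b, and clusters were named "-like" from marker lists. The macrophage-like class held 960 wild-type and 1289 mutant cells, and all 13 macrophage markers were detected in both. Their summed level was 25047 CPM in wild-type and 14326 CPM in mutant macrophage-like cells. Of 11 T or NK cell markers, 5 were detected in wild-type and 8 in mutant macrophage-like cells, at a summed 67.2 and 61.4 CPM, with cd8a, lck and zap70 at 0 in both. The class named T or NK cell-like, with 17 and 10 cells, had 4 of the 11 in each library. It too had cd8a, lck and zap70 at 0, as well as cd4-1, il7r, tnfrsf9b and il2rb. The 0 values in macrophage-like cells therefore cannot tell whether T cells are among them. Of 6 B cell markers, 1 was detected in macrophage-like cells of each library, at 0.819 and 1.63 CPM, with cd79a, cd79b, pax5, ighz and ighd at 0 in both. Of 8 neutrophil markers, 8 and 7 were detected, at a summed 315 and 392 CPM. The part of such cells in the results was not tested. The fibroblast-like class held 1263 and 2522 cells, with all 14 fibroblast markers detected. The libraries filled these classes from different clusters. Cluster 8 held 785 of the wild-type and 66 of the mutant macrophage-like cells, and cluster 2 held 172 and 1173. Endothelial markers summed to 2380 CPM in wild-type and 11924 CPM in mutant cluster 8, and to 1561 and 1882 CPM in cluster 2. Comparisons within cluster 8 thus set cells with unlike marker levels side by side, and the part of this was not tested. Clusters that are mostly from a single library may stand for that library rather than a cell type. As a check of the labels, cd74a was at 4383 CPM in wild-type and 326 CPM in mutant macrophage-like cells, and cd74b at 1785 and 174 CPM.

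The ccl35, ccl39 and ccl34 members had most of their UMIs in macrophage-like cells, whereas for ccl25b the fibroblast-like class held most. With the libraries added up, the macrophage-like class held 84.5% of the 4872 UMIs of ccl35.1, 87.4% of the 1448 of ccl35.2, 90.6% of the 2658 of ccl34b.8 and 82.7% of the 5964 of ccl34a.4. For the 4 ccl39 genes together it held 81.4% of 1631 UMIs. Split by library, it came to 87.5% of wild-type and 36.6% of mutant UMIs. The fibroblast-like class held 82.5% of the 776 ccl25b UMIs, 80% in wild type and 83.8% in mutant. In wild-type macrophage-like cells the order of levels was ccl34a.4 at 2016 CPM, ccl35.1 at 1822, ccl34b.8 at 1680, ccl35.2 at 685, ccl39.1 at 300, ccl39.5 at 274, ccl39.2 at 264 and ccl39.3 at 193 CPM. Neighbours in this order had overlapping intervals for ccl35.1 (1747 to 1900) and ccl34b.8 (1608 to 1754), and for ccl39.1, ccl39.5 and ccl39.2. Tagged counts come from the 3' end of transcripts, so these levels were not scaled by length. In mutant macrophage-like cells ccl34a.4, at 1344 CPM, and ccl35.1, at 1029 CPM, were again the highest, with ccl35.2 at 233 and ccl34b.8 at 194 CPM, and all 4 ccl39 genes lay between 4.34 and 14.7 CPM.

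**Figure D1:**
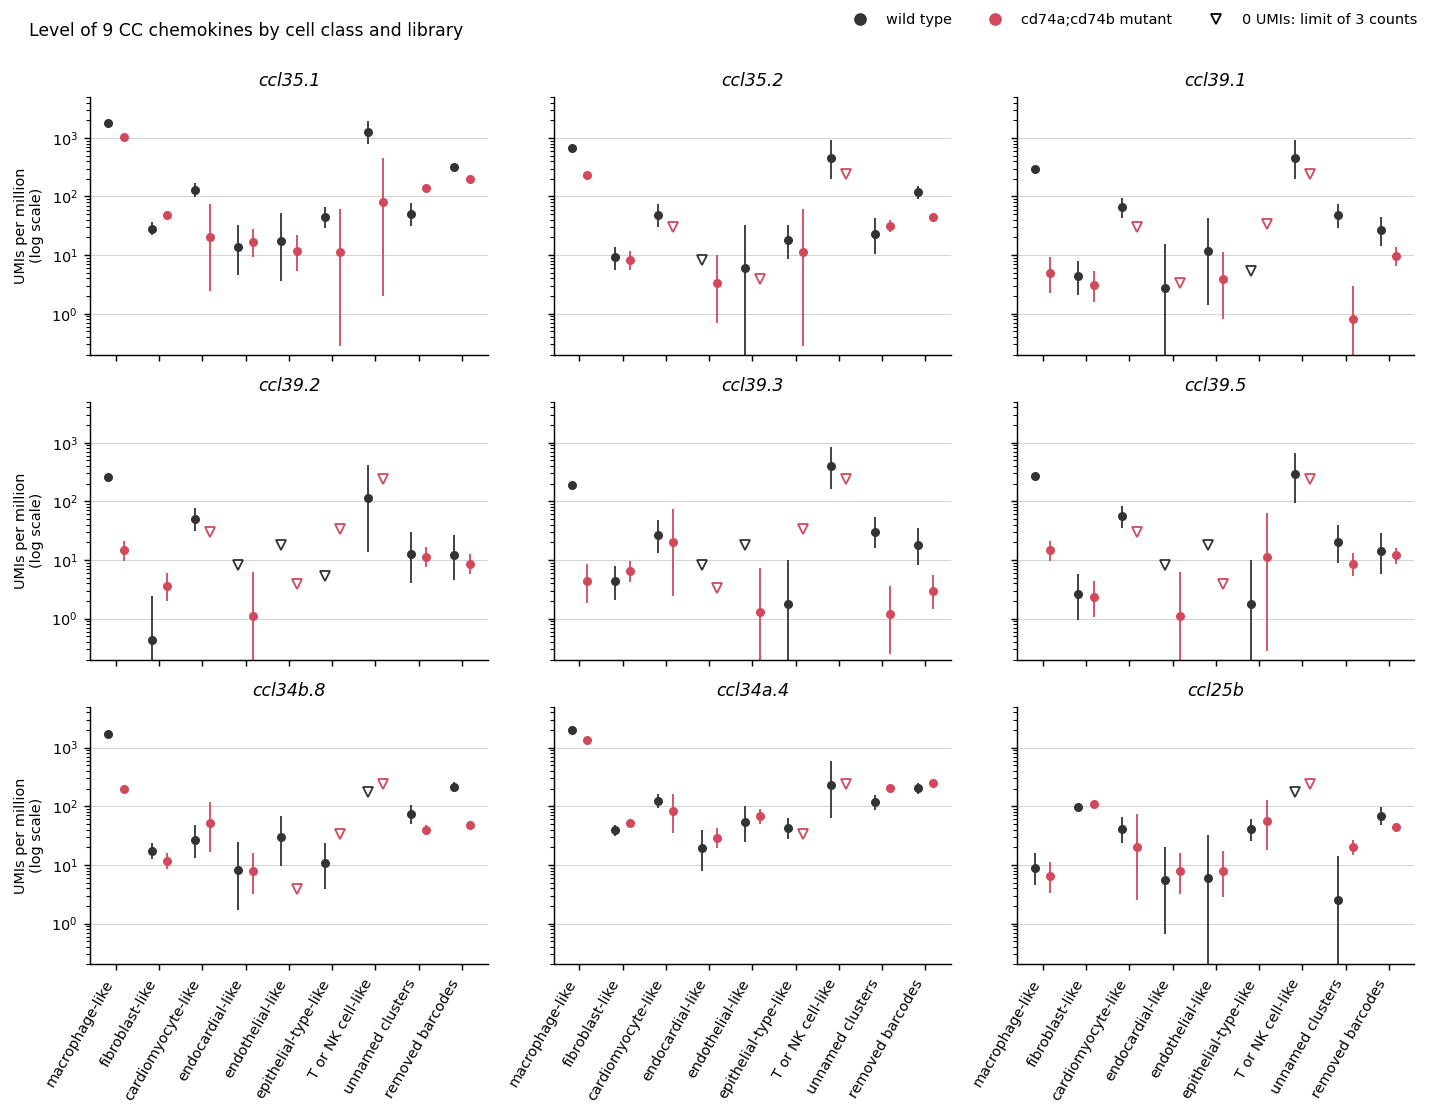
Level of each of the 9 chemokines (CPM, log axis) in 7 named cell classes, the unnamed clusters and the barcodes removed by filtering, for the wild-type (dark) and mutant (red) library. Bars are exact 95% Poisson intervals and open triangles mark 0 UMIs at the limit of 3 counts. Macrophage-like cells are high for 8 members in wild type, as are the 17 T or NK cell-like cells for the ccl35 pair and, from 1 cell, the ccl39 genes, while the red points of the 4 ccl39 genes lie near the level of other classes, and ccl25b is highest in fibroblast-like cells.

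Among kept cells of all classes, 9.95% of 8415 genes with at least 50 UMIs were over 2-fold lower in the mutant library and 1.78% were over 2-fold higher. Of the 9 chemokines, 6 were over 2-fold lower and 0 were over 2-fold higher. In macrophage-like cells the corresponding shares were 18% and 2.11% of 3134 genes, and 6 of the 8 members with enough UMIs were over 2-fold lower and 0 higher. The median ratio of mutant to wild type, on the log2 scale, was -3.63 for these members and -0.48 for all genes. In fibroblast-like cells 9.14% of 5293 genes were over 2-fold lower and 2.74% over 2-fold higher, and 0 of the 5 members with at least 50 UMIs were past either limit. The members therefore fell into 3 sets by size of difference. The ccl39 genes and ccl34b.8 were far lower in mutant macrophage-like cells, and the ccl35 pair and ccl34a.4 were lower by less. Of the ccl35 pair and ccl34a.4, only ccl35.2 was over 2-fold lower, at a log2 ratio of -1.56. ccl25b was within 2-fold in fibroblast-like cells. The targeted genes are themselves expressed mainly in these macrophage-like cells, and the part that depth, mitochondrial share and the differing clusters have in these values was not tested.

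**Figure D2:**
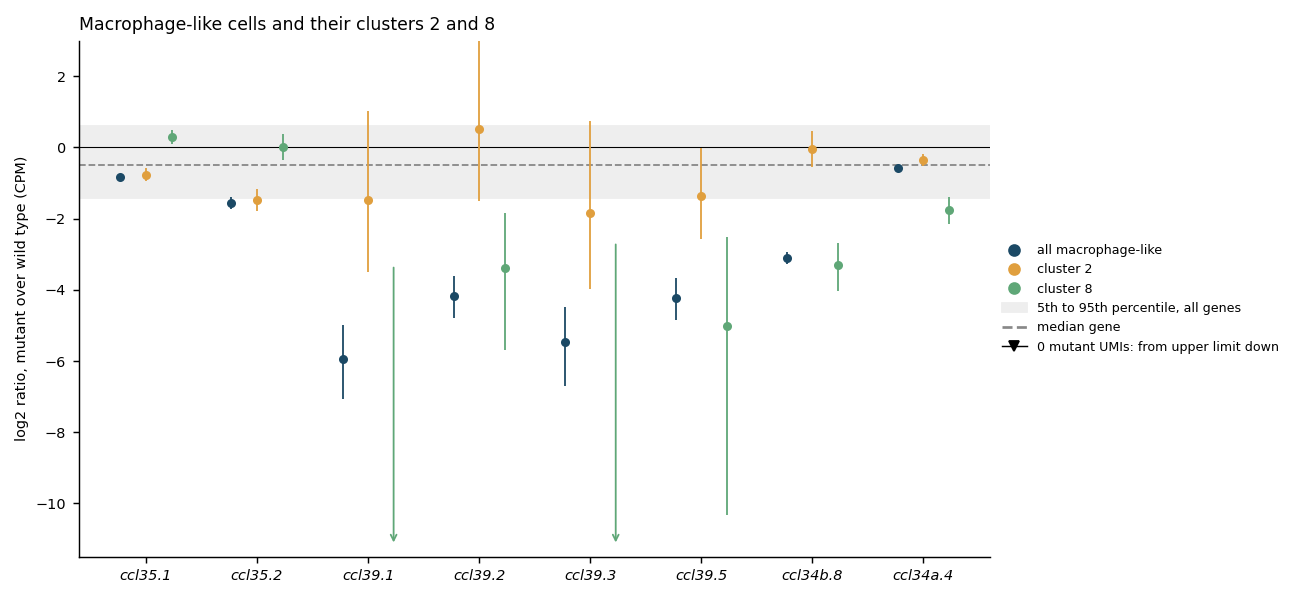
Log2 ratio of mutant over wild-type CPM (y axis) for the 8 members expressed in macrophage-like cells, over the whole class (blue), in cluster 2 (orange) and in cluster 8 (green), with exact 95% intervals and arrows where the mutant had 0 UMIs (the cluster 2 interval of ccl39.2 runs past the axis, to 3.64). The grey band spans the 5th to 95th percentile of 3134 genes in the class, from -1.43 to 0.60, and the dashed line is their median. Over the class the ccl39 genes and ccl34b.8 lie far below the band. ccl35.2, at -1.56, lies just below it, with an interval that reaches into it. In cluster 2 ccl34b.8 lies near 0.

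ccl35.1 and ccl35.2 share a family name and, as given further on, were often detected in the same cells. In macrophage-like cells ccl35.1 was at 1822 CPM in wild type (2224 UMIs) and 1029 CPM in mutant (1895 UMIs), a log2 ratio of -0.82 (-0.91 to -0.74). ccl35.2 was at 685 and 233 CPM (836 and 429 UMIs), a log2 ratio of -1.56 (-1.73 to -1.39). The interval of ccl35.2 lay wholly below that of ccl35.1. ccl35.2 made up 27.3% (25.7 to 28.9) of the pair's UMIs in wild-type and 18.5% (16.9 to 20.1) in mutant macrophage-like cells. The same split appeared in barcodes removed by filtering, at 26.9% in wild type and 18.2% in mutant, and in wild-type cardiomyocyte-like cells, at 27.0%. Within the macrophage-like class it was 26.3% and 27.3% in wild-type clusters 2 and 8, and 17.8% in mutant cluster 2. Mutant cluster 8, at 23.6% (18.9 to 28.9), overlapped the wild-type values. The sequences of the paralogs were not compared here, and how reads that match several copies were counted is not given in the sources used here, so the split between paralogs is uncertain.

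The clusters of macrophage-like cells did not show the same difference for the ccl35 pair. In cluster 2, ccl35.1 was at 1651 CPM in wild type and 974 CPM in mutant, a log2 ratio of -0.76 (-0.93 to -0.59). In cluster 8 it was at 1833 and 2255 CPM, a log2 ratio of 0.30 (0.09 to 0.50), and ccl35.2 was at 688 and 698 CPM, a log2 ratio of 0.02 (-0.35 to 0.38). In cluster 15, a ferritin-rich cluster that completes the class with 3 wild-type and 50 mutant cells, ccl35.1 was at 6426 and 529 CPM, from 33 and 32 UMIs (-3.60, -4.35 to -2.86), and ccl35.2 had 19 and 5 UMIs (-5.48, -7.26 to -4.01). ccl35.1 was thus lower in the mutant in clusters 2 and 15, the latter resting on 3 wild-type cells, and higher in cluster 8. The mutant cells of cluster 8 differed from the wild-type ones in endothelial markers, as given above. In cluster 15 these markers summed to 3311 CPM in wild type and 9111 CPM in mutant. Outside the class, the 17 wild-type T or NK cell-like cells held 22 ccl35.1 UMIs, or 1268 CPM, and the 10 mutant ones held 1. To compare shares of cells, each cell was thinned to 500 UMIs, which left out 9 of 960 wild-type and 4 of 1289 mutant macrophage-like cells. ccl35.1 was then detected in 34.5% (31.5 to 37.6) of wild-type and 22.8% (20.5 to 25.2) of mutant macrophage-like cells, and without thinning in 43.4% and 35.9%. In fibroblast-like cells, with a median of 1286 and 1137 UMIs against 1078 and 1180 in the macrophage-like class, it was detected in 1.27% and 3.11% after thinning. Among cells with the gene, the highest held 43 UMIs in wild type and 37 in mutant, and 65 of 417 and 62 of 463 cells held 50% of the UMIs.

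Macrophage-like cells with and without ccl35 UMIs were compared for other transcripts. In wild type, 419 cells with the pair had higher fthl30, a ferritin heavy chain-like gene (log2 2.25, 1.70 to 2.83), and higher il1b, the interleukin 1 beta gene (log2 1.69, 1.09 to 2.32), than 541 cells without. ncf1, a subunit of the phagocyte NADPH oxidase, was higher by 1.19 on the log2 scale in wild type and by 0.90 in mutant. In the mutant the leading gene was tnfb, a tumour necrosis factor gene, at 1.13 (0.61 to 1.67). il1b was not among the first 8 genes in the mutant, and the first 8 also held genes of other kinds, such as marcksl1b and id2b in wild type and pclaf and mfng in mutant. These genes were taken from the top of a ranking, the cells with ccl35 UMIs were slightly deeper (median 1140 against 1023 UMIs in wild type and 1367 against 1077 in mutant), and the part of depth was not tested.

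The 4 ccl39 genes showed the largest differences. Together they were at 1030 CPM in wild-type macrophage-like cells (1257 UMIs) and 38.6 CPM in mutant ones (71 UMIs), a log2 ratio of -4.74 (-5.11 to -4.39), or 26.7-fold lower in the mutant. ccl39.1 was at 300 CPM in wild type and 4.89 CPM in mutant, from 366 and 9 UMIs, with a log2 ratio of -5.94 (-7.08 to -5.00). ccl39.3 was at 193 and 4.34 CPM, from 235 and 8 UMIs, with a log2 ratio of -5.47 (-6.70 to -4.47). ccl39.2 was at 264 and 14.7 CPM, from 322 and 27 UMIs, with a log2 ratio of -4.17 (-4.79 to -3.60). ccl39.5 was at 274 and 14.7 CPM, from 334 and 27 UMIs, with a log2 ratio of -4.22 (-4.85 to -3.66). Relative to the median gene of the class, the log2 ratios of the 4 genes ran from -5.38 to -3.66. Nearly all of the wild-type signal was in cluster 8, with 1241 UMIs and 1222 CPM against 4 UMIs and 39.9 CPM in the 66 mutant cells of that cluster. There ccl39.1 and ccl39.3 had 363 and 232 wild-type UMIs and 0 mutant UMIs, at least 11.9-fold and 7.63-fold lower against a limit of 3 mutant UMIs. In cluster 2 the sum had 16 wild-type and 66 mutant UMIs, a log2 ratio of -1.03 (-1.83 to -0.14). With clusters drawn at Leiden resolution 2, most wild-type cells of the class took another leukocyte name and the log2 ratio in cells still named macrophage-like was -2.09 for the sum and -2.96 for ccl39.1, -2.89 for ccl39.3 and -1.96 for ccl39.5, with -1.17 (-2.28 to 0.06), which includes 0, for ccl39.2. The mutant level of 38.6 CPM (30.1 to 48.6) overlapped the 33.2 CPM (27.3 to 39.9) of the mutant barcodes removed by filtering. The highest of those removed barcodes held 25 of their 111 UMIs, above the 17 of the highest mutant macrophage-like cell. The overlap therefore does not tell whether the mutant signal is background. In wild type the removed barcodes held 71.2 CPM, far below the macrophage-like level.

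The wild-type ccl39 signal came from few cells. UMIs of these genes were found in 99 of 960 wild-type and 36 of 1289 mutant macrophage-like cells, and after thinning to 500 UMIs in 7.99% (6.35 to 9.90) and 1.32% (0.77 to 2.11). Fibroblast-like cells, set beside them for comparison, gave 0.398% and 0.638%, and whether this is background was not tested. In the mutant they held 60 of the 194 ccl39 UMIs, at 15.4 CPM. They held 25 of the 39 ccl39.3 UMIs, at 6.42 CPM (4.16 to 9.48), against 4.34 CPM (1.88 to 8.56) in mutant macrophage-like cells. The highest wild-type cell held 81 ccl39 UMIs, the next 79 and 66, and 12 cells held 50% of the total. The highest mutant cell held 17, and 23 of the 36 mutant cells held 1 UMI. The difference did not rest on the top cells alone. Without the 12 highest wild-type cells the wild-type level was 512 CPM and the log2 ratio -3.73 (-4.11 to -3.38). All 4 ccl39 genes were found in 30 wild-type cells, 3 of them in 11, 2 in 26 and 1 in 32. In the mutant, 2 cells held all 4, 0 held 3, 9 held 2 and 25 held 1.

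**Figure D3:**
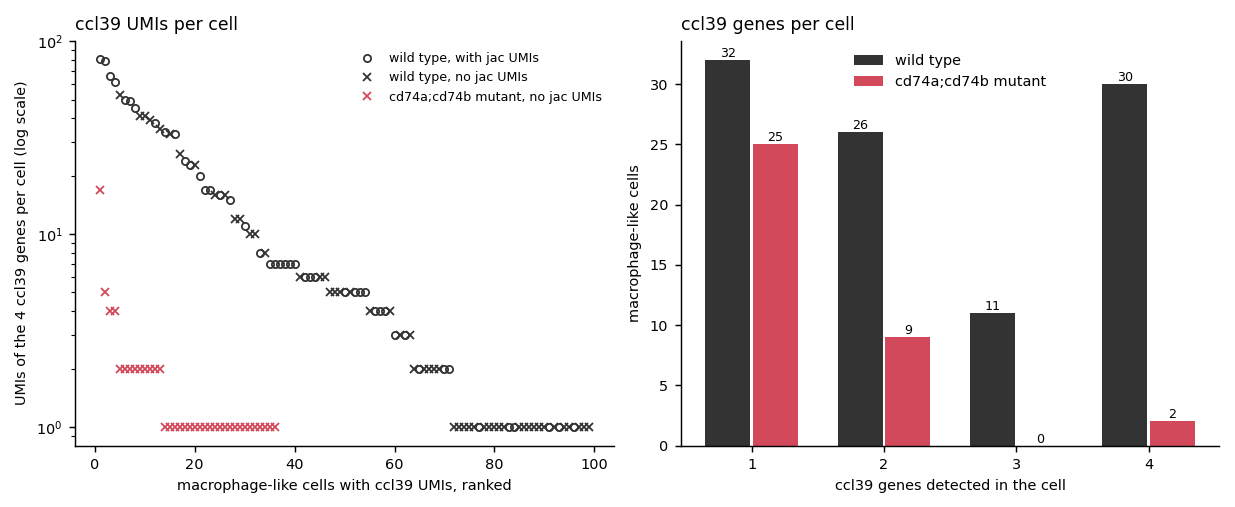
Left, UMIs of the 4 ccl39 genes in each macrophage-like cell that held any (log axis), cells ranked within each library, with circles for cells that also held UMIs of jac3, jac6, jac8 or jac9 and crosses for cells that did not. Right, number of macrophage-like cells with 1, 2, 3 or 4 of the ccl39 genes, without thinning. The dark wild-type points reach 81 UMIs and include 30 cells with all 4 genes, and the red mutant points reach 17 UMIs, with 2 such cells and no circles.

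The ccl39 cells of the wild-type library shared other transcripts. The leading gene of cluster 8 is ccl34b.8, followed by jac8, jac3 and jac9. The jac genes were among the genes used for clustering, which the chemokines were not. Compared with the 861 other wild-type macrophage-like cells, the 99 cells with ccl39 UMIs held more of jac6 (log2 3.59, 3.16 to 4.02), jac3 (3.36), jac9 (3.29) and jac8 (3.22), which are named for the plant lectin jacalin. They also held more f13a1a.1, a gene of the coagulation factor XIII A chain (2.54, 2.34 to 2.74), more ccl34b.8 (2.35, 2.22 to 2.48) and more cxcl8b.1, a CXC chemokine of the neutrophil-attracting kind (1.71, 1.46 to 1.95). The ccl35 pair did not follow, at 2171 CPM in cells with and 2551 CPM in cells without ccl39 UMIs. The 4 jac genes were found in 46 of the 99 cells with ccl39 UMIs and in 78 of the 861 without. They had 0 mutant UMIs, in the macrophage-like class and beyond it. In wild type, macrophage-like cells with and without ccl39 UMIs held 242 and 201 of the 471 jac8 UMIs. With so few UMIs elsewhere, the 0 values in other mutant classes cannot tell whether the absence reaches beyond macrophage-like cells. The median depth was 1219 UMIs with and 1066 without ccl39. In the mutant, the 36 cells with ccl39 UMIs were at 194 CPM of ccl34b.8, as were the cells without, at 194 CPM. The value for the 36 cells rests on few UMIs, with 6 in a single cell and at most 1 in any other, so it is known only roughly.

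A second and weaker wild-type ccl39 signal lay outside the macrophage-like class. Wild-type cardiomyocyte-like cells held 82 ccl39 UMIs, or 199 CPM (158 to 247), in 33 of 403 cells, and after thinning 4.99% (2.98 to 7.77) of them had the genes, above the 0.398% of fibroblast-like cells. The highest such cell held 12. The 33 cells held 42435 CPM of the cardiomyocyte markers and 4157 CPM of the macrophage markers, and the 370 other cardiomyocyte-like cells held 63404 and 2461 CPM. They held 2 UMIs of ccl34b.8 and 0 of the jac genes. In wild-type cardiomyocyte-like cells ccl34b.8 made up 11.8% (6.1 to 20.2) of the UMIs of ccl34b.8 and the ccl39 genes together, against 62.0% (60.3 to 63.6) in macrophage-like cells and 75.2% (67.2 to 82.1) in removed barcodes. The ratio of these genes in summed UMIs thus differed between classes of 1 library. These intervals do not cover the spread between cells, and few cells held many of the UMIs. Other members were also higher in wild-type cardiomyocyte-like than fibroblast-like cells. ccl35.1 was at 131 against 28.3 CPM, ccl35.2 at 48.5 against 9.15, ccl34a.4 at 124 against 38.8 and ccl34b.8 at 26.7 against 17.4 CPM. The macrophage markers summed to 2632 against 735 CPM, so the rise was not confined to ccl39, and its source was not tested. A single T or NK cell-like cell held all 22 ccl39 UMIs of its 17-cell class. Cluster 6, an unnamed cluster led by bmp6 and vwf, held 42 ccl39 UMIs in wild type, or 113 CPM, and 3 in mutant, or 2.73 CPM. Its log2 ratio was -5.37 (-7.71 to -3.73). In its wild-type cells ccl34b.8 made up 35.4% (23.9 to 48.2) of the UMIs of ccl34b.8 and the ccl39 genes. Doublets were left in, and their part in these values was not tested. The 82 mutant cardiomyocyte-like cells held 2 ccl39 UMIs, or 20.4 CPM (2.47 to 73.7).

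ccl34b.8 and ccl34a.4 both had most of their UMIs in the macrophage-like class but differed in which cells held them. ccl34b.8 was at 1680 CPM in wild-type macrophage-like cells (2050 UMIs) and 194 CPM in mutant ones (358 UMIs), a log2 ratio of -3.11 (-3.28 to -2.95), or 8.64-fold lower in the mutant. At Leiden resolution 2 its log2 ratio in cells still named macrophage-like was -0.64 (-0.98 to -0.30). Those cells then held 15.9% (14.5 to 17.4) of its UMIs, against 50.9% (49.7 to 52.2) for ccl34a.4. With macrophage and leukocyte names together, chosen after seeing the data, the shares were 90.4% and 81.7%. ccl34a.4 was at 2016 CPM (2460 UMIs) and 1344 CPM (2475 UMIs), a log2 ratio of -0.58 (-0.67 to -0.50), or -0.10 relative to the median gene of the class. ccl34b.8 made up 45.5% of the UMIs of the 2 genes in wild-type and 12.6% in mutant macrophage-like cells. In cluster 2 the libraries were level for ccl34b.8, at 195 CPM in wild type and 188 CPM in mutant (log2 ratio -0.05, -0.54 to 0.47). In cluster 8 it was at 1979 CPM in wild type and 200 CPM in mutant (-3.31, -4.02 to -2.68). The high level was therefore found in wild-type cluster 8 and in neither library of cluster 2. Cluster 8 is led by ccl34b.8 itself and then by jac genes. The jac genes were used for clustering, which ccl34b.8 was not, and went with ccl34b.8 in wild-type cells. The clusters were thus not drawn independently of ccl34b.8, and the part of this in the values was not tested. ccl34a.4 was at 1731 and 1360 CPM in cluster 2 (-0.35, -0.51 to -0.18) and at 2072 and 609 CPM in cluster 8 (-1.77, -2.16 to -1.40). In removed barcodes ccl34b.8 was at 216 CPM in wild type and 47.5 CPM in mutant, and ccl34a.4 at 201 and 251 CPM.

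The distribution over cells set the pair apart as well. ccl34b.8 was found in 254 of 960 wild-type macrophage-like cells, up to 130 UMIs in a cell, and 33 cells held 50% of the total. In the mutant it was found in 213 of 1289 cells, up to 10 UMIs, and 141 of those cells held 1 UMI. After thinning it was detected in 21.0% (18.5 to 23.8) and 7.16% (5.81 to 8.71) of cells, against 0.557% and 0.798% of fibroblast-like cells. ccl34a.4 was found in 567 wild-type and 717 mutant cells, with 102 and 139 cells holding 50%, and after thinning in 45.2% (42.0 to 48.4) and 37.2% (34.5 to 39.9). It was the most widely detected of the 9 genes in both libraries. The 254 wild-type cells with ccl34b.8 held 380 jac3 and 433 jac8 UMIs, and the 706 cells without it held 8 and 10. Among mutant cells, the leading gene of those with ccl34b.8 was BX323596.2, at a log2 difference of 1.45 (1.07 to 1.83).

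In single macrophage-like cells the members were detected together to differing degrees. After thinning to 500 UMIs, ccl35.2 was detected in 45.7% (40.2 to 51.3) of wild-type cells with ccl35.1 and in 2.73% (1.60 to 4.33) of those without. In the mutant these shares were 29.0% (23.9 to 34.6) and 1.61%. Of 41 wild-type cells with ccl39.1, 73.2% also held ccl39.3, 63.4% held ccl39.5 and 61.0% held ccl39.2, against 0.44%, 3.08% and 1.87% of the 910 cells without ccl39.1. The same 41 cells held ccl34b.8 in 82.9% (67.9 to 92.8), against 18.2% (15.8 to 20.9). They held ccl35.1 in 36.6% (22.1 to 53.1), against 34.4% (31.3 to 37.6), a difference within counting error. They held ccl34a.4 in 68.3% (51.9 to 81.9), against 44.2% (40.9 to 47.5). Over wild-type cells with each of the 4 ccl39 genes, the share with ccl34a.4 ran from 64.3% to 70.4%. ccl34a.4 was found in 44.8% of wild-type cells with ccl35.1 and in 45.4% of those without. It was found in 58.5% (51.3 to 65.4) of wild-type cells with ccl34b.8 and in 41.7% (38.1 to 45.3) of those without. In the mutant 36 of 92 cells with ccl34b.8 held it (29.1 to 49.9%), and 37.0% (34.3 to 39.9) of those without. None of the ccl39 genes was detected in enough thinned mutant cells, 10 being required, to give such a share. Over all 8 genes, 3 wild-type and 0 mutant cells held every one after thinning, and 28.0% and 44.7% held none. Cells of 1 library share their pool, and a gene detected with another in a cell may also follow that cell's total.

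**Figure D4:**
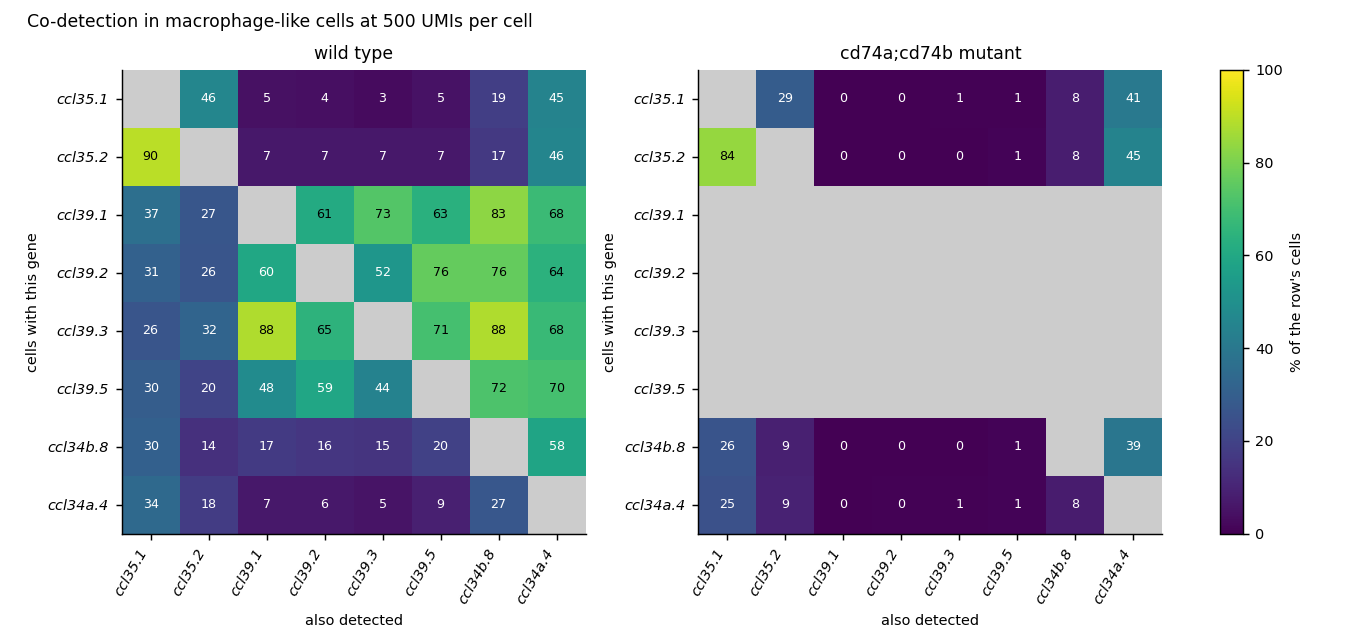
Percent of macrophage-like cells with the row's gene that also held the column's gene, after thinning to 500 UMIs per cell, for the wild-type library (left) and the mutant library (right). Grey marks the diagonal and rows with fewer than 10 cells. In wild type the ccl39 genes and ccl34b.8 fill a block from 44% upward in the 4 ccl39 rows. In those rows the ccl34a.4 column is at 64 to 70% and the ccl35 columns are at 20 to 37%. In the mutant the highest value is 84.2%, for ccl35.1 in cells with ccl35.2.

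ccl25b, the fibroblast member, was at 95.9 CPM in wild-type fibroblast-like cells (220 UMIs) and 108 CPM in mutant ones (420 UMIs), a log2 ratio of 0.17 (-0.07 to 0.41) that includes 0. The median ratio of all genes in this class was -0.38. Under 4 alternatives the interval lay wholly above 0. The ratio was 1.23 (0.85 to 1.62) at Leiden resolution 2 and 0.55 (0.31 to 0.79) when scaled by the median gene. It was 0.39 (0.14 to 0.64) with classes from marker UMIs and 0.36 (0.12 to 0.60) without ribosomal protein genes in the total. At resolution 2, 513 of 1263 wild-type and 230 of 2522 mutant fibroblast-like cells were unnamed, so the ratio of 1.23 sets unlike parts of the class side by side. Within the class the gene was uneven. Cluster 9, led by rbp4, a retinol-binding protein gene, tfa, a transferrin gene, and clu, the clusterin gene, held 181 CPM in wild type and 284 CPM in mutant (log2 ratio 0.65, 0.27 to 1.02). Cluster 5, led by the contractile genes tpm4b, tagln and acta2, held 44.4 and 56.7 CPM (0.35, -0.32 to 1.00). Clusters 3 and 4 were nearly all mutant, at 80.7 and 108 CPM there, and their 24 and 14 wild-type cells held 0 UMIs. In wild type, therefore, most ccl25b came from cluster 9, with 159 of 220 UMIs. Cluster 4 took the largest number in the mutant, 196 of 420. Epithelial-type-like cells were at 41.0 and 55.8 CPM, macrophage-like cells at 9.01 and 6.52 CPM, and removed barcodes at 69.2 and 44.8 CPM.

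ccl25b was sparse in single cells. It was found in 123 of 1263 wild-type and 252 of 2522 mutant fibroblast-like cells, with at most 13 UMIs in a cell in each library. After thinning it was detected in 5.09% (3.94 to 6.46) and 4.99% (4.17 to 5.91) of fibroblast-like cells, and in 0.315% and 0.467% of macrophage-like cells. In cluster 9 the shares were 8.26% (6.06 to 10.9) and 11.7% (7.59 to 17.1), which overlap. Fibroblast-like cells with ccl25b held more of the same genes in both libraries. These were c4 (log2 1.80 in wild type and 1.59 in mutant) and c4b (1.36 and 1.31), which are complement component genes, wu:fj16a03 (2.37 and 1.54) and CR855311.1 (1.61 and 1.38). In wild type cxcl18b, a CXC chemokine gene, was also higher (1.29, 1.07 to 1.50), and in mutant tfa was (1.24). The fibroblast-like cells with ccl25b had a median of 1487 against 1266 UMIs in wild type and 1257 against 1124 in mutant.

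**Figure D5:**
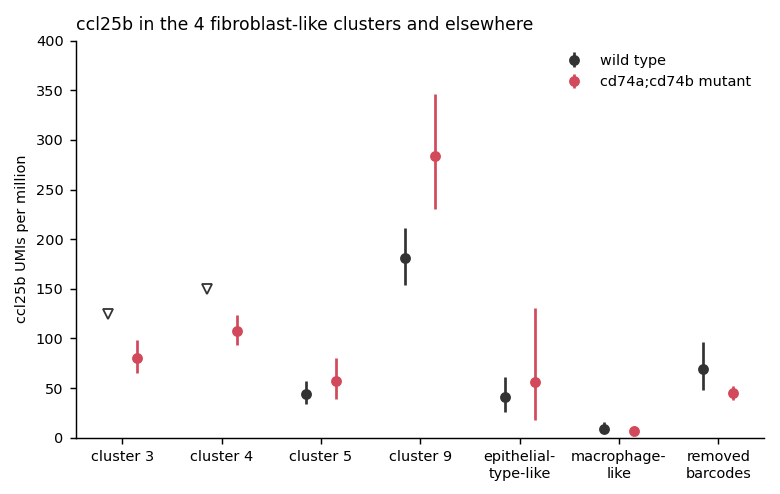
ccl25b level (CPM, linear axis) in the 4 fibroblast-like clusters, epithelial-type-like and macrophage-like cells and removed barcodes, for the wild-type (dark) and mutant (red) library, with exact 95% Poisson intervals and open triangles for 0 UMIs at the limit of 3 counts. Cluster 9 is highest, at 181 CPM in wild type and 284 CPM in mutant. Macrophage-like cells are lowest among points with UMIs.

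The genes whose levels were most like those of each member were sought over the 26 combinations of cluster and library with at least 30 cells, by Pearson's r of log2(CPM + 10), as a description. ccl35.1 was most like si:dkey-262k9.4 (r = 0.98), mfap4, a macrophage marker of fish (0.97), and grn1, a granulin gene (0.97). ccl35.2 was again most like si:dkey-262k9.4 (0.94). ccl34a.4 was most like c1qc, a complement C1q gene (0.97), grn1 and NPC2. ccl34b.8 was most like slc2a3b, a glucose transporter gene (0.94), coro1a, an actin-binding gene of leukocytes (0.93), and il10ra, a receptor gene of interleukin 10 (0.93). ccl39.1 and ccl39.5 were most like jac8 (0.94 and 0.90), and ccl39.2 and ccl39.3 like jac3 (0.84 and 0.82). Both jac genes had 0 mutant UMIs, so these r values also carry the difference between the libraries. ccl25b was most like col12a1b, a collagen gene (0.91), ITLN1, an intelectin gene (0.91), and CABZ01092746.1 (0.91). The combinations of 1 library share its depth and free RNA. Between members, ccl35.1 and ccl35.2 correlated at 0.96, ccl34b.8 and ccl34a.4 at 0.92, and ccl39.1 and ccl39.5 at 0.90. High values were not confined to families, with ccl35.1 and ccl34a.4 at 0.93 and ccl35.1 and ccl34b.8 at 0.88. Among the ccl39 genes the lowest value was 0.68, for ccl39.3 and ccl39.5. ccl25b was between -0.33 and 0.02 with the others.

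Of the 25 other CC chemokine genes in the tables, 9 reached 50 UMIs and 3 had none. ccl38.1 was at 125 CPM in wild-type and 85.8 CPM in mutant macrophage-like cells (log2 ratio -0.55, -0.88 to -0.22), and ccl34b.1 at 108 and 67.3 CPM (-0.68, -1.05 to -0.32). Both were near the median gene of the class. Further genes of the ccl39 family were lower in mutant macrophage-like cells by less than the 4 members. ccl39.7 was at 68.8 and 23.3 CPM (-1.56, -2.12 to -1.01) and ccl39.6 at 42.6 and 11.9 CPM (-1.83, -2.62 to -1.09). ccl34a.3, the neighbour of ccl34a.4, was at 22.1 and 21.2 CPM (-0.06, -0.81 to 0.70). ccl33.3 was higher in the mutant over all cells, with 17 wild-type and 105 mutant UMIs (1.74, 0.99 to 2.57). ccl34b.4 had 16 and 54 UMIs (0.86, 0.04 to 1.77). In macrophage-like cells ccl33.3 had 1 wild-type and 30 mutant UMIs, at 0.819 and 16.3 CPM (4.31, 1.72 to 9.66). There ccl34b.4 had 4 and 14 UMIs, at 3.28 and 7.60 CPM (1.21, -0.46 to 3.27). Over all kept cells ccl33.3 was at 3.13 and 10.4 CPM and ccl34b.4 at 2.95 and 5.37 CPM. Removed barcodes were higher in each library, at 20.3 and 19.1 CPM for ccl33.3 and 34.6 and 15.2 CPM for ccl34b.4. ccl20b and ccl44, with 55 and 51 UMIs, were mainly in fibroblast-like cells. There ccl20b had 13 wild-type and 26 mutant UMIs, at 5.67 and 6.68 CPM, and ccl44 had 11 and 26, at 4.79 and 6.68 CPM. ccl34b.9, which follows ccl34b.8 in the GRCz12tu order, fell under the minimum and was singled out after its values were seen, with 20 wild-type and 1 mutant UMIs in macrophage-like cells (-4.92, -10.29 to -2.27).

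Transcripts of receptors were scarce. Of 16 CC and XC receptor symbols, 5 reached 20 UMIs and 6 had none. ccr9a, a zebrafish counterpart of the mammalian receptor of Ccl25, had 284 of its 406 UMIs in macrophage-like cells, at 114 CPM in wild type and 78.7 CPM in mutant (log2 ratio -0.53, -0.88 to -0.19), close to the median gene. It had 12 and 32 UMIs in fibroblast-like cells, at 5.23 and 8.22 CPM. The 17 wild-type and 10 mutant T or NK cell-like cells had 5 and 1 UMIs, at 288 and 80.1 CPM. These counts are too few to rank that class against macrophage-like cells. ackr4b, an atypical receptor that takes up chemokines in mammals, had 710 UMIs, with 121 wild-type and 104 mutant UMIs in endocardial-like cells and 272 in unnamed clusters. Over all kept cells ccr2, summed over 2 identifiers, had 11 wild-type and 42 mutant UMIs, at 2.03 and 4.17 CPM. ccr8.1 had 13 and 31 UMIs, at 2.40 and 3.08 CPM, and ccr12b.1 had 21 and 22, at 3.87 and 2.19 CPM.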

How the data were processed

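The deposited values are counts of UMIs per gene and barcode, made by the authors from Chromium 3' v3.1 libraries after dead-cell removal. The submitters' processing notes name STARsolo, Scanpy and danRer11, and tool versions and the annotation release are not given in the sources used here. Barcodes were kept with over 300 genes and at most 70% of UMIs in 13 mitochondrial genes, and 37 mitochondrial genes were left out of the totals. Counts were scaled and log transformed, and 2000 variable genes, without chemokine, receptor, cd74, mitochondrial and 97 ribosomal protein genes, gave 50 principal components, 15 neighbours and 16 Leiden clusters (resolution 1, seed 1; scanpy 1.11.5, igraph 0.11.9). A cluster name needed at least 3 markers over 2-fold and a median log2 fold of 0.5. Doublets were left in. Members, lists and naming limits were chosen with earlier results of these data known.

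UMIs were summed by class and library. Levels have Poisson, log2 ratios conditional binomial and shares Clopper-Pearson intervals at 95% (scipy 1.17.1), checked on simulated counts. The limit for 0 is 3 counts. Shares of cells were taken after thinning to 500 UMIs. The text names all 9 members, other CC chemokine genes with at least 50 UMIs, receptors with at least 20, the 3 genes most like each member and the targeted genes. Genes that lead cells with a member over cells without, among the first 8 with at least 100 UMIs, were chosen after their values were seen. No test was made with 1 library per genotype, so p-values are absent. Alternatives changed the cell filters, the Leiden resolution, the way classes were assigned, the scaling and the thinning depth.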

Additional observations from a re-analysis of the deposited data

Results flagged for a closer look

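The members ccl35.1 and ccl34a.4 had log2 ratios of mutant over wild type with intervals wholly above 0 in some cells and wholly below 0 in others, among classes and clusters with at least 30 cells in each library and 50 UMIs of the gene. The difference between cell groups was not tested, since each genotype has 1 library.

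ccl35.1 was higher in the mutant in cluster 8 (0.30, 0.09 to 0.50) and in fibroblast-like cells (0.78, 0.36 to 1.21). It was lower in cluster 2 (-0.76), in the whole macrophage-like class (-0.82) and in cardiomyocyte-like cells (-2.68, from 54 and 2 UMIs). In fibroblast-like cells the levels were 28.3 CPM in wild type and 48.6 CPM in mutant, below the 321 and 202 CPM of removed barcodes.

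ccl34a.4 was higher in the mutant in fibroblast-like cells (0.43, 0.06 to 0.80), at 38.8 and 52.2 CPM, below the 201 and 251 CPM of removed barcodes. It was lower in the macrophage-like class (-0.58), in cluster 2 (-0.35), in cluster 8 (-1.77) and in cluster 6, an unnamed cluster led by bmp6 and vwf (-0.94, -1.58 to -0.28).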

How the results depend on the processing

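No paired analysis was possible because each genotype has 1 library, and for the same reason no replicate could be left out. No alternative reversed a called ratio, but calls changed for ccl39.2, whose interval included 0 at Leiden resolution 2 (-1.17), and for ccl25b, whose interval lay above 0 under 4 alternatives. The log2 ratio of mutant to wild type in the main class was -0.99 for the ccl35 pair, -4.74 for the ccl39 genes, -1.26 for the ccl34 genes and 0.17 for ccl25b. In that order it was -0.82, -5.73, -1.50 and -0.10 with over 500 genes per cell, -1.16, -2.09, -0.63 and 1.23 at Leiden resolution 2, and -0.51, -4.26, -0.78 and 0.55 when scaled by the median gene. As a mean of each cell's share it was -1.15, -4.15 and -1.08 for the first 3 groups. With classes from marker UMIs it was -1.08 for ccl35, -5.24 for ccl39 and 0.39 for ccl25b. Without ribosomal protein genes in the total it was -0.79 for ccl35, -1.07 for ccl34 and 0.36 for ccl25b. For ccl39 it was -5.28 at up to 30% mitochondrial UMIs and -5.14 at Leiden resolution 0.5.

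At Leiden resolution 2, 683 of 960 wild-type macrophage-like cells lay in clusters named as leukocytes only and 513 of 1263 wild-type fibroblast-like cells were unnamed. With both leukocyte names together, an alternative chosen after seeing the data, the ratios were -0.99, -4.74 and -1.26. The share of UMIs in the main class was 85.2% for ccl35, 81.4% for ccl39, 85.2% for ccl34 and 82.5% for ccl25b. At resolution 2 it was 44.8%, 7.23%, 40.1% and 56.1%, and with both names together 83.2% for ccl35. At up to 30% mitochondrial UMIs it was 90.1%, 84.0%, 89.8% and 85.8%. For ccl35, ccl34 and ccl25b it was 89.6%, 90.4% and 85.2% with over 500 genes and 78.9%, 80.5% and 74.2% with classes from marker UMIs.

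The share of ccl35.1 cells with ccl35.2 was 45.7% in wild type and 29.0% in mutant. It was 64.1% and 35.13% at 1000 UMIs, 67.4% and 41.9% without thinning, and 34.02% and 14.8% with at least 2 UMIs. With over 500 genes it was 35.5% (27.1 to 44.6) in wild type and 30.8% (20.8 to 42.2) in mutant, so the intervals overlapped under that filter. For single members, ratios moved beyond counting error in 28 cases and did not in 43. With over 500 genes per cell ccl39.1 had no mutant UMI in the class and gave no ratio. The mutant ccl39 values rest on 71 UMIs.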
